A study of Mus musculus with 9 samples.

Results

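Genes of the G2 phase and mitosis were followed in a mouse podocyte line in which Usp40, a gene for a deubiquitinating enzyme, was knocked down. The set held 53 genes, found by symbol in a table of 25655 genes, and all 53 had enough counts to be tested. Podocytes are the cells that cover the capillaries of the kidney glomerulus. The line was grown per the labels at a permissive 33 °C with interferon-gamma and then kept at 37 °C without it for 10 to 14 days to differentiate. Wild-type cells of this line then received USP40 siRNA#1 (siRNA 1), USP40 siRNA#2 (siRNA 2) or, as control, the Negative Control No.1 of the Silencer Select line, all with Lipofectamine RNAiMAX, and poly(A) RNA was sequenced 48 h later. There were 3 libraries in each group. The labels call them biological replicates without saying that each came from its own culture, and every p-value here rests on the spread between libraries, which may be technical.

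The members act in the order of the division itself. Cyclin A2 and cyclin B activate the kinase CDK1, the phosphatases of the CDC25 family remove its inhibitory phosphates, and CDK1 with the Polo and Aurora kinases drives entry into mitosis and spindle assembly. The kinetochore joins chromosomes to microtubules, the spindle checkpoint holds back the anaphase-promoting complex until all are attached, and CDC20 with that complex then triggers separation and exit. Most of these genes are transcribed late in the cycle and are repressed in resting cells, as in the terminally differentiated podocyte of the kidney. The cell-cycle gene homology region (CHR) and the CCAAT box near their start sites can be bound by the DREAM and MuvB complexes and by NF-Y. Binding was not measured in these cells.

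These promoter letters were counted first, since many members share them beside their function. In windows from 250 bases before to 50 bases after the start of the canonical transcript (GENCODE vM39 on GRCm39), CHR letters (TTTGAA or the variants TTCGAA and TTTAAA, both strands) were found in 35 of 53 member windows, 66.0%, against 28.3% of all 21603 windows of protein-coding genes. The CCAAT box (CCAAT, both strands, which may share bases with a CHR) was likewise in 35 member windows, 66.0%, against 39.8% of all windows. A CHR together with 2 or more CCAAT boxes stood in 15 member windows, 28.3%, against 3.74% of all. Of the 9 members called in at least 1 comparison below, 5 held a CHR, as did 30 of the 44 called in none, and the counts for the CCAAT box were the same. The windows of 6 members are printed 5′ to 3′, up to the base before the start site, with CHR letters and CCAAT boxes in capitals. Top2a and Cdk1 carry both motifs near the start, and the other four belong to members that changed. Their GRCm39 positions are Top2a at chr11:98915042-98915291 on the minus strand, Cdk1 at chr10:69188769-69189018 on the minus strand, Ect2 at chr3:27208030-27208279 on the minus strand, Spc25 at chr2:69036559-69036808 on the minus strand, Cdca3 at chr6:124806401-124806650 on the plus strand, Birc5 at chr11:117739805-117740054 on the plus strand. Ect2 carries both motifs, Spc25 and Cdca3 show CCAAT boxes alone in these bases, and Birc5 shows only a distant TTTAAA. The counted window of Spc25 also holds a CHR at position 26 past the start site, beyond the printed bases. A match is a description of the letters and not a bound site.
Top2a: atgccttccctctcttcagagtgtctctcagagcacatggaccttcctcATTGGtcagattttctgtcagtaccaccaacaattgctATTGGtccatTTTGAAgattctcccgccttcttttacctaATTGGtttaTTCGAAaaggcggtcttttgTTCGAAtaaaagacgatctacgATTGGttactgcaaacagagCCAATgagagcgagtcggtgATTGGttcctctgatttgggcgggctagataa
Cdk1: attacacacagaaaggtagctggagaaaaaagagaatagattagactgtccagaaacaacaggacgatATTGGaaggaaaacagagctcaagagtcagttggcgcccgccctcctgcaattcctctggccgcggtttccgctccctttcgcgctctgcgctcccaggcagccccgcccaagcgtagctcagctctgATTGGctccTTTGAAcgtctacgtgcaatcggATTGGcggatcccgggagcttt
Ect2: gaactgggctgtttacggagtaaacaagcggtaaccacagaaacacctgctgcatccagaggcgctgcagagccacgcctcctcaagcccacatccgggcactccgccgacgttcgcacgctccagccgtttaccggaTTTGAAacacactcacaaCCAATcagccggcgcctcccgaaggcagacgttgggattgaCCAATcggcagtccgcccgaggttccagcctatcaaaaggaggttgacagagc
Spc25: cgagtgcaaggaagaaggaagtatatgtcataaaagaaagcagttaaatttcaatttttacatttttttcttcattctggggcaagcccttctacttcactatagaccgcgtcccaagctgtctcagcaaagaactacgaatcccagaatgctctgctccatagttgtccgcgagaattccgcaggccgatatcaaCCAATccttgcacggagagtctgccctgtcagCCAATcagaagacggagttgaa
Cdca3: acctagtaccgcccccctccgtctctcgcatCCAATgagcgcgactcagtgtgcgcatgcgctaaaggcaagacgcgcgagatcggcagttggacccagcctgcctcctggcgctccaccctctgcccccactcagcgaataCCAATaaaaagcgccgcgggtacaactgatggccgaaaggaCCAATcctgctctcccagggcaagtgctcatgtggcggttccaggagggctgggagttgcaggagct
Birc5: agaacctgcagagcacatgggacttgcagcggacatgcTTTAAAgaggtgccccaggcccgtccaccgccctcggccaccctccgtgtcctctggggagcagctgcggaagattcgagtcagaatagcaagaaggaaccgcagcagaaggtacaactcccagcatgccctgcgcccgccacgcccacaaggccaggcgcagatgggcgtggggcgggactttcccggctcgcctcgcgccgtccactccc

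The libraries held 9786270 to 13675426 gene counts. Usp40 fell to 44.2% of control with siRNA 1 and to 54.2% with siRNA 2 (edgeR adjusted p = 0.000727 and 0.00047). The podocyte label was not borne out by its defining markers. Over all 9 libraries Nphs1 had 2 counts, Lmx1b 13 and Wt1 40, and Ptpro and Tcf21 were at 0, while the actin-linked podocyte genes carried most of that list's 139058 counts. Markers of each cell type were summed in CPM, gene counts scaled by library size. The 14 podocyte genes had 1324 to 1493 CPM with siRNA 1, 1203 to 1330 with siRNA 2 and 1134 to 1345 in controls. The 6 tubular genes had 89.4 to 133 CPM with siRNA 1, 127 to 172 with siRNA 2 and 79.8 to 119 in controls, so that all siRNA 2 libraries lay above all controls. Lrp2 held 12265 of the 12758 tubular counts over all libraries, while Aqp2 was at 0, Umod had 2, Slc34a1 5 and Epcam 14. The 5 mesangial genes, 1 of them at 0, had 47.2 to 50.6 CPM with siRNA 1, 54.4 to 62.9 with siRNA 2 and 45.1 to 52.3 in controls, and here too siRNA 2 lay above all controls. The 5 immune genes, 2 of them at 0, had 15.2 to 16.1, 13.3 to 14.9 and 8.42 to 15.3 CPM, and the 5 endothelial genes, 1 of them at 0, had 0.594 to 0.716, 0.467 to 0.647 and 0.257 to 0.569 CPM, with siRNA 1, siRNA 2 and in controls. The part of these markers in the members' values was not tested. The share of counts in genes longer than the median of 3525 bp differed between libraries and groups, at 44.0 to 48.2% with siRNA 1, 47.0 to 48.9% with siRNA 2 and 41.6 to 46.5% in controls.

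All 53 members were at 1 TPM, a level scaled for gene length and depth, or more in every control library. RNA of every member was thus present after culture at the higher temperature. Their mean control levels ran from 9.59 TPM for Bora, a cofactor in PLK1 activation, to 226 TPM for Ccna2, which encodes cyclin A2, with a median of 72.7 TPM. Among all genes of the table the members' percentiles of control TPM ran from 65.8 to 97.2, with a median of 89.9. Together they took 0.362 to 0.434% of the control TPM. After Ccna2, the highest were Top2a (topoisomerase that untangles chromosomes) at 188 ± 42.6 TPM and Cdc20 (activator of the anaphase-promoting complex) at 182 ± 15.5 TPM (SD, n = 3), which did not differ beyond their spread. The cyclin and CDK genes had the highest of the medians with 3 or more genes, 107 TPM, and the centromere and kinetochore genes the lowest, 32.0 TPM. Within the kinetochore group Spc25, a subunit of the NDC80 complex, was at 162 ± 9.67 TPM while its partner Spc24 was at 25.5 ± 0.948 TPM (SD, n = 3). In such bulk RNA fewer dividing cells and less RNA per cell cannot be told apart, and no count of cycling cells is given with these libraries.

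**Figure D1:**
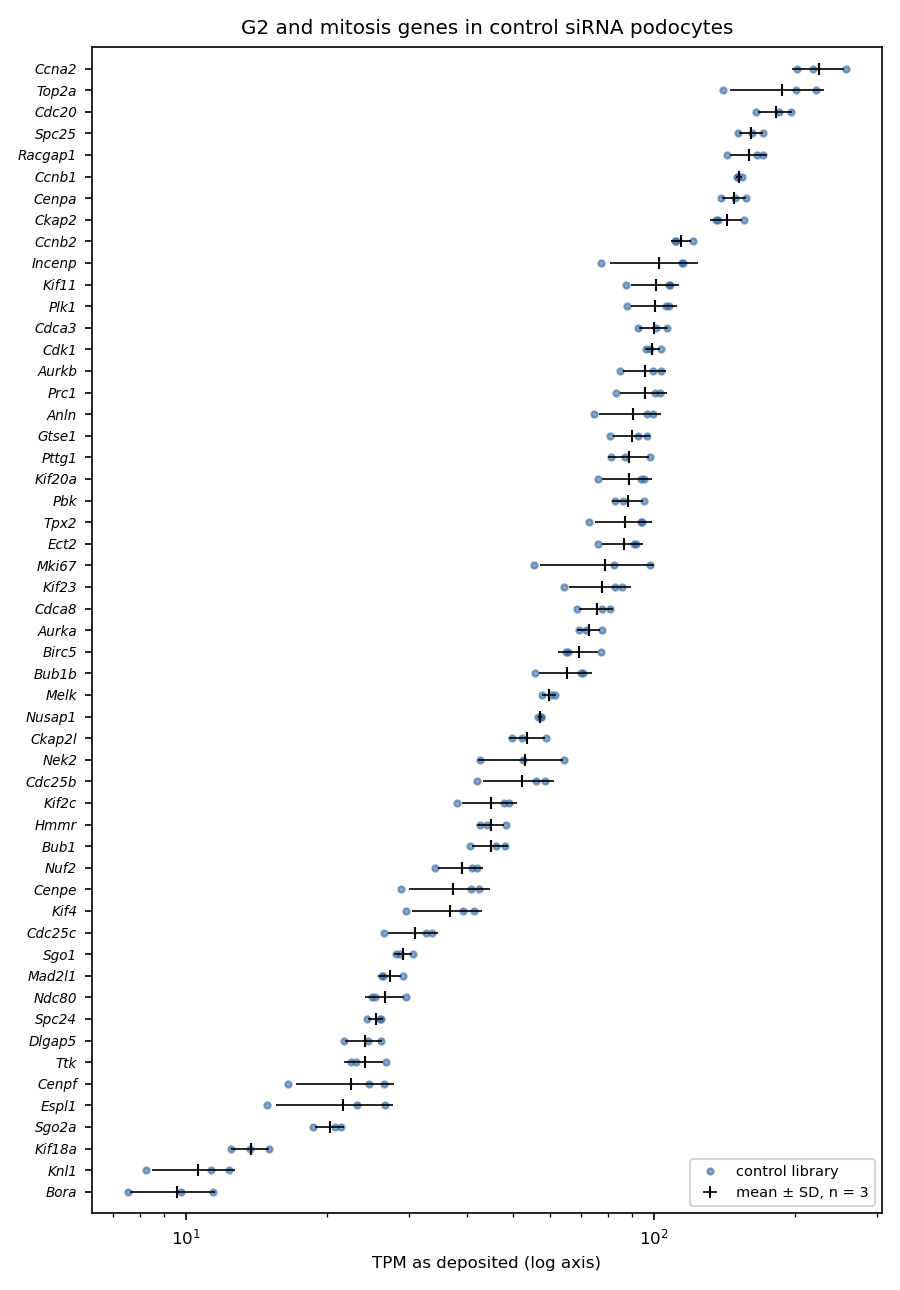
Control TPM of the 53 members (rows, ordered by mean) on a log axis, with points for the 3 control libraries and ticks with bars for mean and SD (n = 3). Every member lies above 1 TPM, from Bora at a mean of 9.59 to Ccna2 at 226.

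Knock-down moved few members past the test. With siRNA 1 no member rose and 1 fell, Spc24, which is 1.89% of the members where 1.65% of all 11800 tested genes were called (1.03% lower, 0.627% higher). With siRNA 2, 6 members fell (Birc5, Pbk, Spc25, Ect2, Aurka and Cdca3) and Cdc25b rose, which is 13.2% where 16.2% of all genes were called (8.4% lower, 7.81% higher). Both shares of calls lie near the background, so neither sets the members apart from other genes. At an unadjusted p under 0.05 by edgeR, 20 of 53 members were lower and 0 higher with siRNA 1. Of all 11800 genes 800 (6.78%) were lower and 808 (6.85%) higher, so the members' lower share stood above that of all genes. With siRNA 2, 12 of 53 were lower and 3 higher, where 16.7% and 17% of all genes were. With single libraries left out, the siRNA 1 count was 0 except without control replicate 1 (1) or 3 (3), and the siRNA 2 count of 7 became 3 without siRNA 2 replicate 3 and 11 without control replicate 3.

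The direction with siRNA 1 was more even than its calls. Of the 53 log2 fold changes 47 were negative, with a median of -0.13 where all tested genes had 0.0055, and 48.6% of all genes were negative. In 24 members all siRNA 1 libraries lay below all control libraries and in none above them, where 8.65% and 7.94% of all genes did so. With siRNA 2, 34 were negative, the median was -0.060 (all genes -0.0055), and 21 members lay below and 4 above all controls, where 19.1% and 19.5% of all genes did so. The members above were Prc1, Cenpe, Cdc25b and Mki67. Both comparisons use the same 3 control libraries.

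Summed over the members, the level was 5356 ± 358 CPM with siRNA 1, 5714 ± 166 CPM with siRNA 2 and 5790 ± 338 CPM in controls (SD, n = 3 each). These are 92.5% and 98.7% of control. The siRNA 1 libraries had 4959, 5653 and 5457 CPM, of which only replicate 1 lay outside the control range (5399 to 5990 CPM). The siRNA 2 libraries (5528 to 5847 CPM) lay within that range. The median coefficient of variation of the members was 7.46% among siRNA 1 libraries, 4.24% among siRNA 2 libraries and 6.59% among controls. Standard errors of the log2 fold changes had a median of 0.0803 with siRNA 1 and 0.0805 with siRNA 2. The 95% intervals lay within 2-fold of no change for all 53 members with siRNA 1 and for 52 with siRNA 2, Birc5 being the exception.

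**Figure D2:**
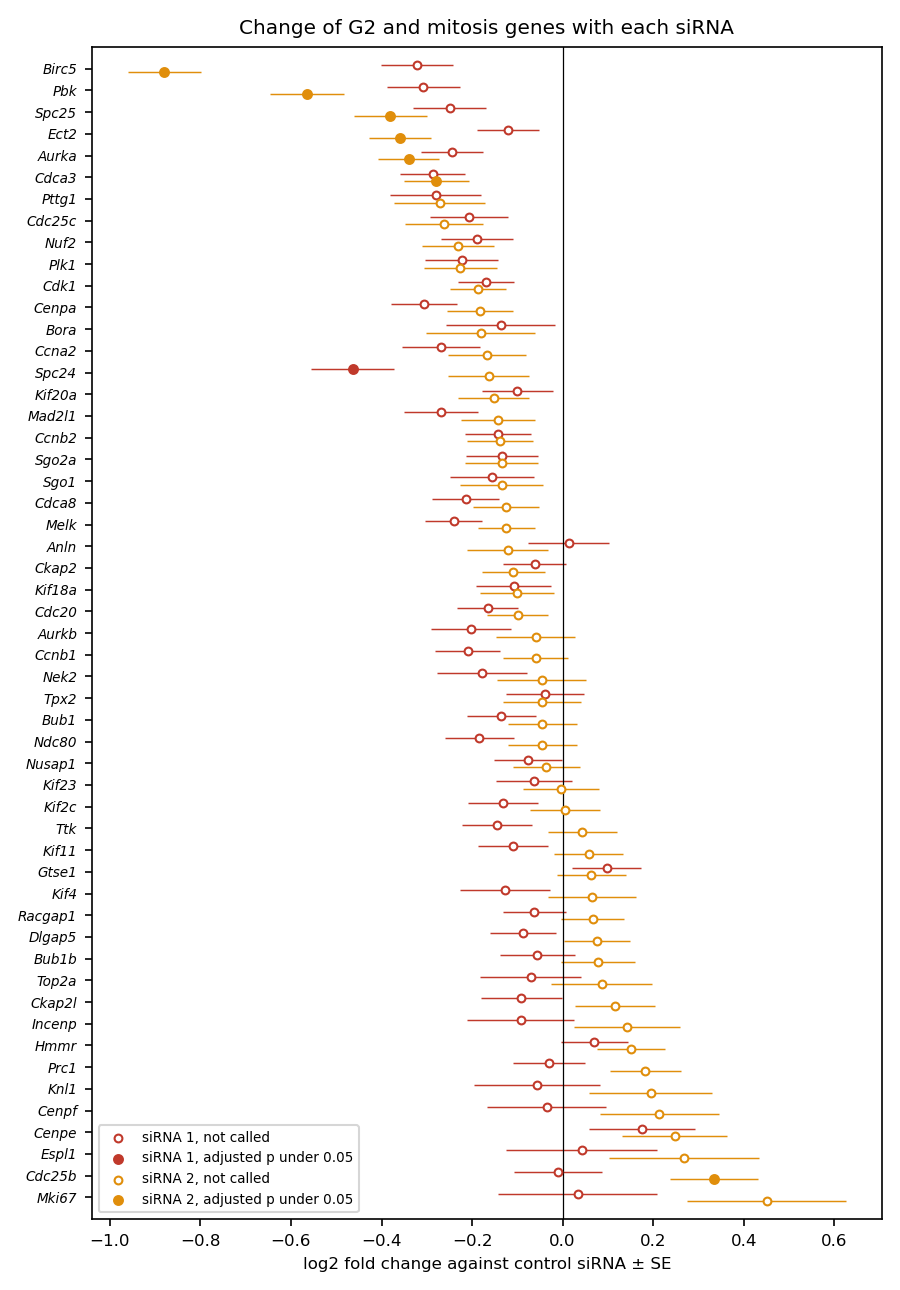
Log2 fold change against control (x axis, points with standard error bars) of each of the 53 members with siRNA 1 and with siRNA 2, ordered by the siRNA 2 value, with filled points at an edgeR adjusted p under 0.05. Birc5 with siRNA 2 stands farthest out at -0.88, and most siRNA 1 points lie left of 0.

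**Figure D3:**
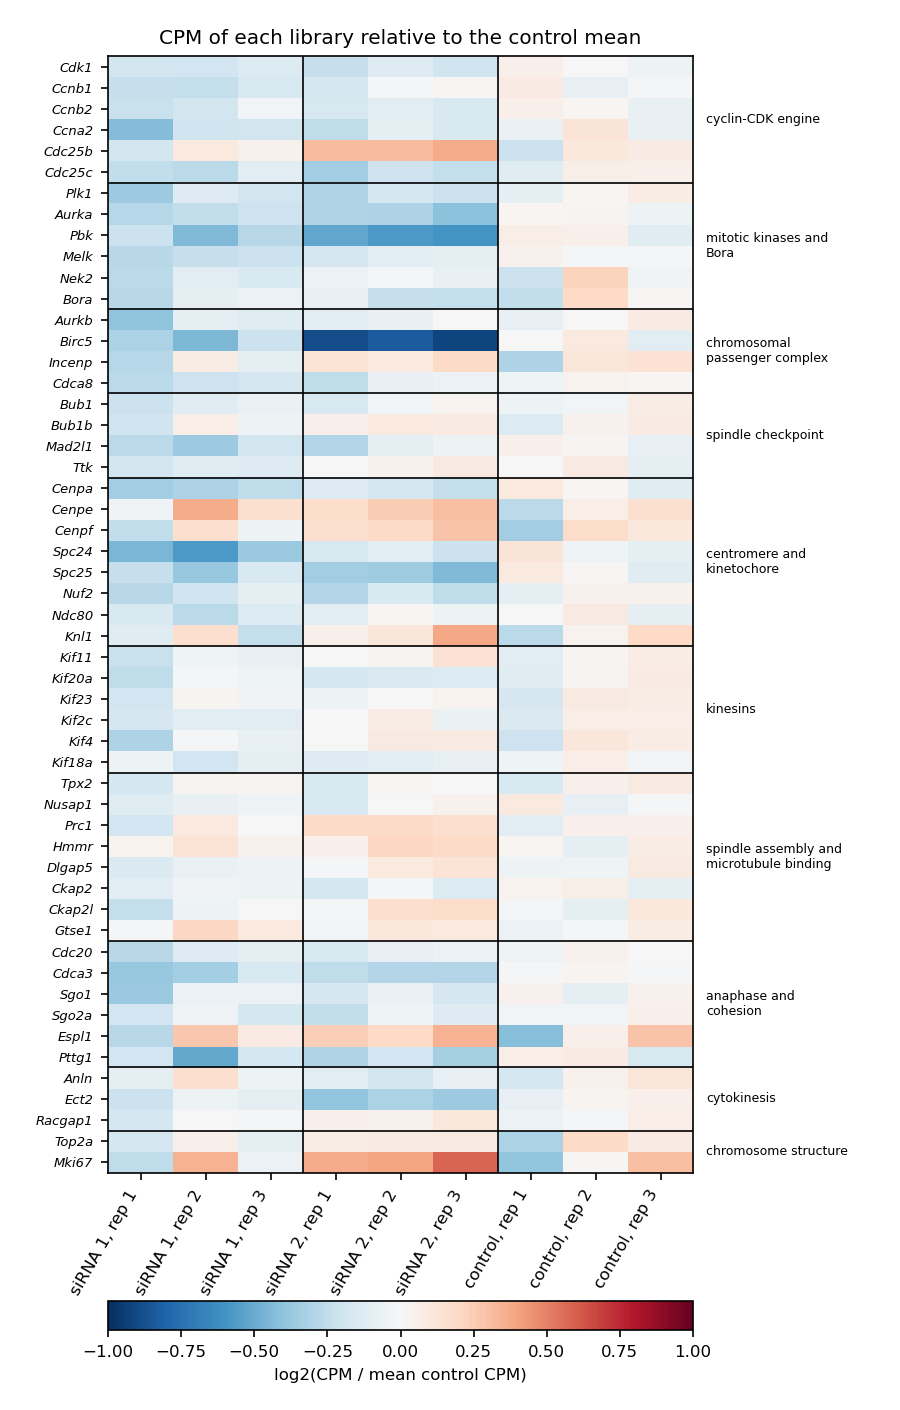
Log2 ratio of each library's CPM to the mean control CPM for all 53 members (rows, by role) in the siRNA 1, siRNA 2 and control libraries (columns). Birc5 and Pbk are low in all siRNA 2 libraries, and control replicate 1 is the lowest control for Mki67 and Espl1.

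In the engine of mitotic entry 1 of 6 genes was called with siRNA 2, 16.7% where 16.2% of all genes were. None was called with siRNA 1, where 1.65% of all genes were. Cdk1, the mitotic kinase itself, had 167, 167 and 173 CPM with siRNA 1, 162, 174 and 165 CPM with siRNA 2, and 198, 190 and 184 CPM in controls. All siRNA libraries lay below all controls, and neither change passed (log2 -0.17, edgeR adjusted p = 0.248, and -0.19, edgeR adjusted p = 0.057). Ccnb1, for cyclin B1, had 136, 136 and 144 CPM with siRNA 1, 142, 158 and 162 CPM with siRNA 2, and 170, 152 and 160 CPM in controls. It lay below the controls with siRNA 1 (-0.21, edgeR adjusted p = 0.222) and overlapped them with siRNA 2 (-0.06, edgeR adjusted p = 0.586). Cyclin genes Ccnb2 and Ccna2 had -0.14 and -0.27 with siRNA 1, and -0.14 and -0.17 with siRNA 2.

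Cdc25b (chromosome 2, 131028869 to 131040417, plus strand), a phosphatase that starts CDK1 activation, was the one member that rose. It had 60.7, 73.5 and 70.8 CPM with siRNA 1, 85.9, 85.6 and 88.9 CPM with siRNA 2, and 59.4, 74.1 and 73.0 CPM in controls. Every siRNA 2 library lay above every other library. The rise with siRNA 2 was 0.33 on the log2 scale (SE 0.0963, edgeR adjusted p = 0.0365), to 126% of control, against -0.01 with siRNA 1 (edgeR adjusted p = 0.971), and the difference between the siRNAs missed the threshold (-0.35, edgeR adjusted p = 0.0537). Cdc25c, the related phosphatase, had -0.26 with siRNA 2 (edgeR adjusted p = 0.0559) and -0.21 with siRNA 1. The call of Cdc25b ended without siRNA 1 replicate 3, any siRNA 2 replicate or control replicates 1 and 2 (edgeR adjusted p = 0.0526 to 0.129). Its exons overlap Spef1 on the other strand by 190 bp, at 7941 against 633 counts, and with a strand setting not given in the sources used here its value is uncertain.

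Among 5 mitotic kinases and Bora, 2 kinases fell with siRNA 2, where 16.2% of all genes were called, none was called with siRNA 1, where 1.65% were, and all 6 genes had negative values with both siRNAs. Pbk (chromosome 14, 66043286 to 66055271, plus strand), a kinase active in mitosis, had 57.4, 49.0 and 55.1 CPM with siRNA 1, 46.6, 44.7 and 44.0 CPM with siRNA 2, and 69.6, 69.1 and 61.3 CPM in controls. The 3 groups did not overlap. It fell by 0.56 on the log2 scale with siRNA 2 (SE 0.0818, edgeR adjusted p = 0.00118), to 67.6% of control, and had -0.31 with siRNA 1 (edgeR adjusted p = 0.104), a difference of 0.26 between the siRNAs that did not pass (edgeR adjusted p = 0.0921). Aurka (chromosome 2, 172198110 to 172212455, minus strand), the Aurora kinase of centrosomes and spindle poles, had 48.9, 50.3 and 51.8 CPM with siRNA 1, 48.5, 48.1 and 44.8 CPM with siRNA 2, and 60.6, 60.7 and 57.6 CPM in controls. All siRNA libraries were below all controls, and the siRNA 2 value passed (-0.34, SE 0.0679, edgeR adjusted p = 0.00738; siRNA 1 -0.24, edgeR adjusted p = 0.125), but not without siRNA 2 replicate 3 (edgeR adjusted p = 0.0514). Plk1, the Polo-like kinase of mitotic entry, had 72.5, 85.6 and 82.2 CPM with siRNA 1, 76.0, 82.8 and 80.8 CPM with siRNA 2, and 87.3, 94.7 and 98.5 CPM in controls. It too lay below the controls throughout without passing (-0.22 and -0.23, edgeR adjusted p = 0.248 and 0.0739). Melk, a kinase of dividing cells, had -0.24 and -0.12, Nek2, which splits centrosomes, -0.18 and -0.05, and Bora -0.14 and -0.18 with siRNA 1 and siRNA 2.

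Birc5 (ENSMUSG00000017716, chromosome 11, 117740077 to 117746569, plus strand) encodes survivin, the subunit that places the chromosomal passenger complex on centromeres. It had 80.0, 72.8 and 85.8 CPM with siRNA 1, 53.7, 55.8 and 52.6 CPM with siRNA 2, and 99.9, 106 and 92.3 CPM in controls. The 3 groups were apart, with siRNA 2 lowest and siRNA 1 in between. Birc5 fell to 54.4% of control with siRNA 2 (log2 -0.88, SE 0.0811, edgeR adjusted p = 6.85e-05), and had 80.0% of control with siRNA 1 (-0.32, SE 0.0797, edgeR adjusted p = 0.0803). It was the only member called between the siRNAs, higher with siRNA 1 than with siRNA 2 by 0.56 (95% interval 0.38 to 0.74, edgeR adjusted p = 0.00141). The other subunits of the complex did not pass. The kinase gene Aurkb had -0.20 with siRNA 1 and -0.06 with siRNA 2, the scaffold gene Incenp -0.09 and 0.14, and Cdca8, for borealin, -0.21 and -0.13.

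**Figure D4:**
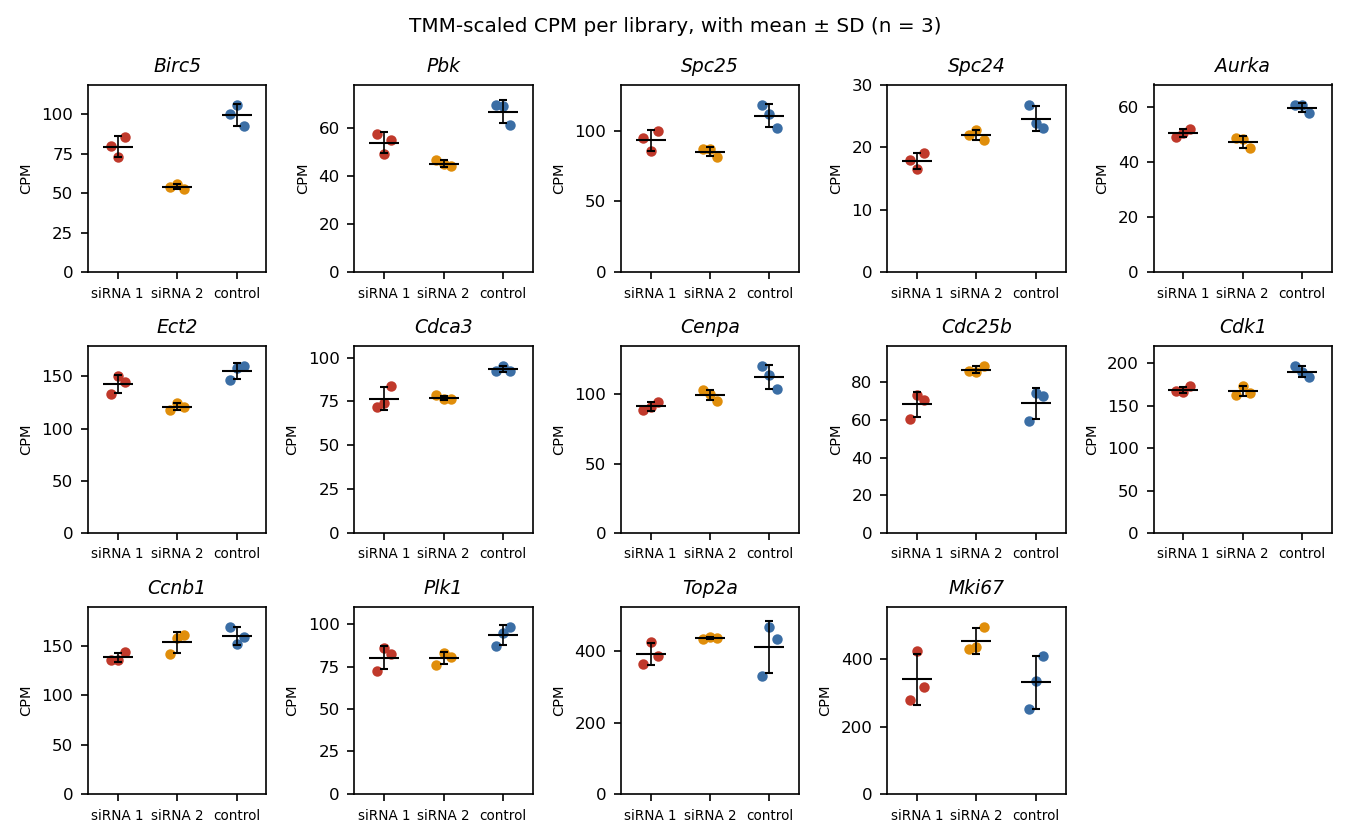
CPM of each library, with mean and SD (n = 3), for the 9 members called in at least 1 comparison and 5 key members, in siRNA 1, siRNA 2 and control libraries. Birc5 and Pbk are lowest with siRNA 2 and in between with siRNA 1, Spc24 and Cenpa are lowest with siRNA 1, and Cdc25b is high with siRNA 2 alone.

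At the kinetochore, calls fell on Spc24 and Spc25, whose products pair within the NDC80 complex. Of 8 centromere and kinetochore genes 1 was called with each siRNA. That is 12.5%, where 1.65% of all genes were called with siRNA 1 and 16.2% with siRNA 2. Spc24 (chromosome 9, 21666738 to 21671599, minus strand) had 17.9, 16.6 and 19.1 CPM with siRNA 1, 22.1, 22.8 and 21.2 CPM with siRNA 2, and 26.9, 24.0 and 23.1 CPM in controls. It fell by 0.46 on the log2 scale with siRNA 1 (SE 0.0916, edgeR adjusted p = 0.0276), to 72.5% of control, and had -0.16 with siRNA 2 (edgeR adjusted p = 0.219), and the siRNAs did not pass against each other (-0.30, edgeR adjusted p = 0.0767). Spc25 (chromosome 2, 69024239 to 69036538, minus strand) had 94.6, 85.5 and 99.6 CPM with siRNA 1, 87.3, 86.8 and 81.5 CPM with siRNA 2, and 119, 112 and 102 CPM in controls. It fell by 0.38 with siRNA 2 (SE 0.0805, edgeR adjusted p = 0.0101), to 76.8% of control, with -0.25 under siRNA 1 (edgeR adjusted p = 0.188). Both genes lay below all controls with each siRNA. The call of Spc24 with siRNA 1 held without control replicate 1 or 3 and ended without any other single library (edgeR adjusted p = 0.0538 to 0.108), and that of Spc25 with siRNA 2 ended without siRNA 2 replicate 3 (edgeR adjusted p = 0.0604).

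Cenpa (chromosome 5, 30824121 to 30832174, plus strand), the histone H3 variant that marks centromeres, had 88.4, 90.7 and 94.3 CPM with siRNA 1, 103, 99.9 and 95.3 CPM with siRNA 2, and 121, 114 and 103 CPM in controls. It missed the threshold with siRNA 1 (-0.31, edgeR adjusted p = 0.0679) and siRNA 2 (-0.18, edgeR adjusted p = 0.104). The other NDC80 subunits Nuf2 and Ndc80 had -0.19 and -0.18 with siRNA 1, and -0.23 and -0.04 with siRNA 2. Cenpe (a kinetochore motor) had 0.18 and 0.25, Cenpf (a microtubule-binding protein) -0.04 and 0.21, and Knl1 (the checkpoint scaffold) -0.06 and 0.19 with siRNA 1 and siRNA 2. With the length correction described below these became 0.11 and 0.11 for Cenpe, -0.12 and 0.02 for Cenpf, and -0.12 and 0.05 for Knl1. None of these passed. In the spindle checkpoint none of 4 genes passed, where 1.65% of all genes were called with siRNA 1 and 16.2% with siRNA 2. Mad2l1, for the checkpoint protein MAD2, had -0.27 and -0.14, Bub1 -0.14 and -0.04, the BUBR1 gene Bub1b -0.06 and 0.08, and Ttk, for the checkpoint kinase MPS1, -0.14 and 0.04.

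The 6 kinesins and the 8 genes of spindle assembly held no call, where 1.65% of all genes were called with siRNA 1 and 16.2% with siRNA 2. Kinesin values ran from -0.13 to -0.06 with siRNA 1 and from -0.15 (Kif20a, of the central spindle) to 0.06 (Kif4, a chromosome-bound kinesin) with siRNA 2. Kif11, which pushes spindle poles apart, had -0.11 and 0.06. The spindle assembly genes ran from -0.09 to 0.10 with siRNA 1 and from -0.11 (Ckap2) to 0.18 with siRNA 2. The highest was Prc1, a bundler of central spindle microtubules, at 160, 160 and 158 CPM with siRNA 2 against 131, 146 and 145 CPM in controls (edgeR adjusted p = 0.129).

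Of 6 genes of anaphase and cohesion 1 fell with siRNA 2, 16.7% where 16.2% of all genes were called. None was called with siRNA 1, where 1.65% of all genes were. The gene that fell was Cdca3 (chromosome 6, 124806510 to 124810664, plus strand), a trigger of mitotic entry that the anaphase-promoting complex degrades. It had 71.8, 73.8 and 84.0 CPM with siRNA 1, 78.4, 76.2 and 76.3 CPM with siRNA 2, and 92.3, 95.4 and 92.4 CPM in controls. Both siRNA groups lay below the controls by the same size, -0.29 with siRNA 1 (SE 0.0726, edgeR adjusted p = 0.0861) and -0.28 with siRNA 2 (SE 0.0725, edgeR adjusted p = 0.0248), and their difference was -0.01 (95% interval -0.17 to 0.15). The siRNA 2 call ended without any siRNA 2 replicate or control replicate 2 (edgeR adjusted p = 0.0681 to 0.0996) and with the length correction described below (0.0586). Pttg1, for securin, had -0.28 and -0.27, and Espl1, for the separase it holds in check, 0.04 and 0.27, with siRNA 1 and siRNA 2. Cdc20 had -0.17 and -0.10.

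Ect2 (chromosome 3, 27151371 to 27208027, minus strand), the exchange factor that activates RhoA for the cleavage furrow, had 133, 150 and 145 CPM with siRNA 1, 118, 124 and 120 CPM with siRNA 2, and 147, 158 and 160 CPM in controls. The siRNA 2 libraries were below all others. Ect2 fell by 0.36 with siRNA 2 (SE 0.0686, edgeR adjusted p = 0.00573), to 77.9% of control, with -0.12 under siRNA 1 (edgeR adjusted p = 0.476), and the siRNAs differed by 0.24 short of the threshold (edgeR adjusted p = 0.06). The other cytokinesis genes, Anln (anillin, a furrow scaffold) and Racgap1 (a partner of ECT2 at the central spindle), had 0.01 and -0.06 with siRNA 1, and -0.12 and 0.07 with siRNA 2.

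Neither of the common proliferation markers passed. Mki67, for the chromosome-coating Ki-67 protein, had 278, 423 and 319 CPM with siRNA 1, 429, 436 and 497 CPM with siRNA 2, and 253, 334 and 410 CPM in controls. All siRNA 2 libraries lay above all controls, and the value did not pass (0.45, SE 0.176, edgeR adjusted p = 0.1; siRNA 1 0.03, edgeR adjusted p = 0.951). With the length correction the siRNA 2 value of Mki67 was 0.28 (edgeR adjusted p = 0.0697). Top2a had 364, 428 and 387 CPM with siRNA 1, 435, 440 and 439 CPM with siRNA 2, and 331, 470 and 436 CPM in controls. Its controls spanned both siRNA groups (-0.07 and 0.09, edgeR adjusted p = 0.826 and 0.61).

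Averaged over both siRNAs, 8 members fell and none rose, 15.1% of the members where 7.32% of all genes were called (4.28% lower, 3.04% higher). They were Birc5 (-0.60, edgeR adjusted p = 0.00106), Pbk (-0.44, 0.0051), Spc25 (-0.31, 0.0207), Spc24 (-0.31, 0.0327), Aurka (-0.29, 0.0135), Cdca3 (-0.28, 0.0212), Cenpa (-0.24, 0.0378) and Ect2 (-0.24, 0.0316). Besides Cenpa all of them were called with one siRNA alone, and the average does not show that both act alike. The count was 5, 4 and 3 without siRNA 2 replicates 1, 2 and 3, and 2 without control replicate 2, where Birc5 and Pbk were left. Between the siRNAs 1.89% of the members were called where 6.74% of all genes were (2.49% lower, 4.25% higher), and Birc5 was that member. In 16 members all siRNA 1 libraries lay below all siRNA 2 libraries and in 4 above them, where 15.3% and 15.6% of all genes did so. The count of 1 became 3 without siRNA 1 replicate 2 and 4 without control replicate 1.

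Position in the range of gene lengths went with the members' values. These lengths are those behind the deposited RPKM, and the lengths of the transcripts present were not measured. Across the 53 members, which share the same libraries, the log2 fold change had a Spearman correlation with gene length of 0.57 for siRNA 1 and 0.52 for siRNA 2, against 0.26 and 0.38 across all tested genes. The shorter 27 members had a median of -0.20 with siRNA 1 and -0.12 with siRNA 2, and the longer 26 had -0.08 and -0.02. With siRNA 2 the long members Mki67 (10061 bp), Cenpf (11346 bp) and Cenpe (7910 bp) stood at the high end, while Mad2l1 (8032 bp) had -0.14 and, with siRNA 1, -0.27, and the called members Spc25 (1621 bp), Pbk (1791 bp) and Aurka (1940 bp) were among the short ones. With siRNA 2, Birc5 (3402 bp) and Ect2 (4264 bp) lay below the line of all genes of their length. With a correction for length in each library, the members called were Birc5, Pbk, Cenpa and Spc24 with siRNA 1, where 3.09% of all genes were called. With siRNA 2 Cdca3 was no longer called and Cdk1 was (-0.24, edgeR adjusted p = 0.016), for 6 lower and Cdc25b higher, where 19.9% of all genes were called. In the average 10 members fell, where 12.1% of all genes were called, Cdk1, Ccna2 and Mad2l1 joining and Cenpa leaving. Between the siRNAs Birc5 and Ect2 were higher and Cdc25b and Spc24 lower with siRNA 1, where 10.3% of all genes were called. Among members not called with siRNA 2, the corrected values were -0.15 for Plk1, -0.07 for Cenpa, -0.09 for Spc24, -0.16 for Pttg1, -0.29 for Mad2l1 and 0.16 for Espl1. The corrected medians of the members with siRNA 1 and siRNA 2 were -0.13 and -0.05. Of the 53 corrected values 50 and 32 were negative, where 5677 and 5669 of all 11800 genes were. Their Spearman correlation with gene length was still 0.33 and 0.19 after the correction, against 0.0034 and 0.018 across all tested genes. The part of the length shift in these results was not tested.

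**Figure D5:**
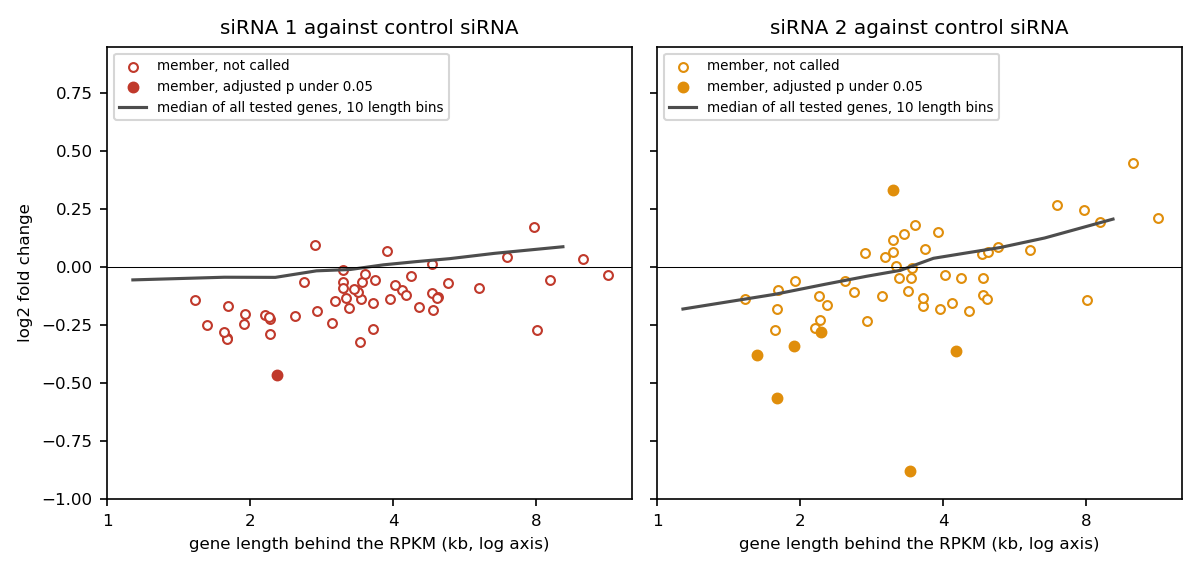
Log2 fold change against gene length in kb (log axis) for the 53 members with siRNA 1 and with siRNA 2, with the median of all tested genes in 10 length bins as a line. The line climbs with length in both panels, and most siRNA 1 points and the called siRNA 2 points other than Cdc25b lie below it.

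Other genes of the same machinery were counted from lists of their regulators and partners. Of 22 regulators of G2 and mitosis transcription none was called with siRNA 1, where 1.65% of all genes were. At an unadjusted p under 0.05 by edgeR 0 were higher and 2 lower, where 6.85% and 6.78% of all genes were. With siRNA 2, 2 rose and 3 fell, 22.7% of the list where 16.2% of all genes were called. Foxm1, the factor that drives these genes late in the cycle, averaged 81.9 ± 15.5 CPM with siRNA 1, 101 ± 3.95 with siRNA 2 and 93.6 ± 19.2 in controls (SD, n = 3), and did not pass (-0.19 and 0.11). Mybl2, for B-MYB, had -0.16 and 0.16, and Lin54, the CHR-binding subunit of MuvB, -0.15 and 0.09. With siRNA 2 the E2F genes E2f5 fell (-0.49, edgeR adjusted p = 0.0145) and E2f7 rose (0.41, edgeR adjusted p = 0.0342), the MuvB subunit gene Lin9 fell (-0.38, edgeR adjusted p = 0.0175) and the E2F partner gene Tfdp2 rose (0.38, edgeR adjusted p = 0.0138).

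Of 18 genes of the anaphase-promoting complex and its partners, 1 rose and none fell with siRNA 1, 5.56% where 1.65% of all genes were called, and 1 rose and 3 fell with siRNA 2, 22.2% where 16.2% were. Anapc4, a scaffold subunit, rose with both (0.39, edgeR adjusted p = 0.0176, and 0.29, edgeR adjusted p = 0.0186), while the subunit gene Cdc27 fell with siRNA 2 (-0.46, edgeR adjusted p = 0.0023) and had -0.04 with siRNA 1. Of 50 further spindle and kinetochore genes 2 fell with siRNA 1, 4% where 1.65% of all genes were called, and 4 fell and 2 rose with siRNA 2, 12% where 16.2% were. Their medians were -0.16 with siRNA 1 and -0.04 with siRNA 2, where all tested genes had 0.0055 and -0.0055. Cep55, which recruits the machinery of the final cut between daughter cells, fell with siRNA 2 to 31.3 ± 1.21 CPM, against 53.5 ± 3.31 CPM in controls (SD, n = 3; log2 -0.77, edgeR adjusted p = 0.000265), with -0.31 under siRNA 1. Depdc1a fell with siRNA 2 (-0.56, edgeR adjusted p = 0.00302), the checkpoint gene Kntc1 rose (0.55, edgeR adjusted p = 0.00883), and the centromere gene Cenpn fell with siRNA 1 (-0.43, edgeR adjusted p = 0.0488). Among 20 cohesin and condensin genes none was called with siRNA 1, where 1.65% of all genes were. At an unadjusted p under 0.05 by edgeR 1 was higher and 2 lower, where 6.85% and 6.78% of all genes were. With siRNA 2 Ncapd3 of condensin (0.35) and Stag2 of cohesin (0.24) rose and Stag1 of cohesin fell (-0.24), 15% where 16.2% of all genes were called. Among 20 genes of mitotic entry and exit none was called with siRNA 1, where 1.65% of all genes were. At an unadjusted p under 0.05 by edgeR 0 were higher and 2 lower, where 6.85% and 6.78% of all genes were. With siRNA 2 the phosphatase gene Cdc14b rose (0.58, edgeR adjusted p = 0.00964) and the CDK subunit gene Cks1b fell (-0.33, edgeR adjusted p = 0.0145), 10% where 16.2% of all genes were called.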

How the data were processed

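RNA-seq of 9 libraries was analysed. The authors deposited 1 table of 25655 genes with total gene read counts, RPKM, TPM and a signal, the authors' scaled CPM, for each library, per the file headers. CLC Genomics Workbench 23.02, DESeq2 and the GRCm39 build are named in the submitters' processing notes. Strand setting, annotation and siRNA sequences stay not given in the sources used here. Kits were strand-specific, with paired 36 bp reads, 12 PCR cycles and all libraries in batch 1, per the labels' protocols.

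Counts were filtered with filterByExpr (11800 genes kept), scaled by TMM and tested with edgeR 4.0.16 in R 4.3.3 by the robust quasi-likelihood test, fitting the 3 groups of all 9 libraries and no covariate. P-values were adjusted by Benjamini-Hochberg over all tested genes and called under 0.05. The fit was tested on simulated data. DESeq2 1.42.0 and limma 3.58.1 voom were alternatives. CPM values use TMM-scaled totals, and levels between genes the deposited TPM. Gene lengths came from the deposited RPKM. The length correction used loess offsets (span 0.5) per library. No molecular identifiers are named, so PCR copies are not independent molecules. Replicates differed beyond sampling noise (chi-square per degree of freedom 3.18 to 18.4).

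The members and lists were chosen with earlier results of these data known. Per-library values are given for members called in any contrast and for Cdk1, Ccnb1, Plk1, Top2a and Mki67. Of each other list at most 4 called genes are named, by size of change, with Foxm1, Mybl2, Lin54 and Usp40 always named. Of the 53 members, 11 have exons overlapping a counted gene on the opposite strand, and their values are uncertain to that extent. These are Ccna2, Kif20a, Kif4, Kif18a, Nusap1, Prc1, Cdc20, Cdc25b, Cdc25c, Cdca8 and Sgo2a.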

Additional observations from a re-analysis of the deposited data

Results flagged for a closer look

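Birc5 was the member whose response differed between the siRNAs by a direct test. It averaged 79.5 ± 6.47 CPM with siRNA 1, 54.0 ± 1.61 CPM with siRNA 2 and 99.4 ± 6.91 CPM in controls (SD, n = 3 each), and its log2 fold changes differed by 0.56 between siRNA 1 and siRNA 2 (edgeR adjusted p = 0.00141, 0.0153 at most over the alternatives). All 3 siRNA 1 libraries lay above all 3 siRNA 2 libraries. Usp40 itself stood at 44.2% of control with siRNA 1 and 54.2% with siRNA 2 (log2 difference -0.29, edgeR adjusted p = 0.185). A cause was not tested.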

How the results depend on the processing

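Of 264 alternatives over 17 pairs of a called member and a comparison, 215 kept direction and call, 49 kept direction and lost the call, and none turned. Direction could hardly turn in runs that left out a library of the group not compared. Without siRNA 1 replicate 1, Aurka with siRNA 2 was at -0.3406, against -0.3400 in the main fit. Birc5 and Pbk kept every call, and Ect2 kept its siRNA 2 call. In the average contrast Cenpa lost its call in 9 alternatives (edgeR adjusted p up to 0.123), Ect2 in 7 (up to 0.116), Spc24 in 6 (up to 0.106), Cdca3 in 3 (up to 0.0909), Spc25 in 2 (up to 0.09) and Aurka in 1 (0.0652). With siRNA 1 the members called were 4 by DESeq2, 0 with only the compared groups fitted and 4 with the length correction. All genes called in these settings were 264, 37 and 365. In the average, 1425 of all genes were called with the length correction. Between the siRNAs, members called were 2 without the count filter, 3 by DESeq2, 4 with only the compared groups, 3 with the replicate block and 4 with the length correction, and all genes called were 1284 with only the compared groups and 1214 with the length correction. With single libraries left out, members called ran from 0 to 3 with siRNA 1, 3 to 11 with siRNA 2, 2 to 9 in the average and 1 to 4 between the siRNAs, and all genes from 36 to 234, 636 to 2608, 174 to 1478 and 361 to 1335. The causes were not tested. Correlations between libraries of different groups ran from -0.138 to 0.427 for the same replicate number and from -0.429 to 0.378 for different numbers. These ranges overlap, so whether the numbers pair the libraries was not settled. With the replicate block 1, 10, 10 and 3 members were called in the siRNA 1, siRNA 2, average and between-siRNA contrasts. Of all genes, 226, 2295 and 1092 were called with that block in the siRNA 1, siRNA 2 and average contrasts. At 3 libraries a group, the members' standard errors had a median of 0.0803 with siRNA 1 and 0.0805 with siRNA 2.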

Other observations

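Genes of DNA replication act before the G2 phase and are not among the members. Of 42 such genes 9 rose and 3 fell with siRNA 2, 28.6% where 16.2% of all genes were called. With siRNA 1, 0 rose and 1 fell, 2.38% where 1.65% of all genes were called. The median log2 fold changes of the 42 genes were 0.01 with siRNA 1 and 0.08 with siRNA 2. Among all genes, 739 of the 922 higher calls with siRNA 2 were on genes longer than the median of 3525 bp. The part of gene length in this list was not tested. Pole, for the catalytic subunit of DNA polymerase epsilon, rose to 153 ± 6.78 CPM with siRNA 2, against 103 ± 24.2 CPM in controls (SD, n = 3; edgeR adjusted p = 0.0208), and Orc1, of the origin recognition complex, rose to 12.5 ± 0.721 CPM with siRNA 2, against 9.21 ± 0.470 CPM in controls (SD, n = 3; edgeR adjusted p = 0.0469). The helicase gene Mcm4 and the histone mRNA-binding gene Slbp had the largest falls with siRNA 2 in this list, and differed between siRNA 1 and siRNA 2 by 0.98 and 1.00 on the log2 scale (edgeR adjusted p = 8.65e-05 and 0.000143). No test set these genes against the mitotic genes.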
